A study of Mus musculus with 48 samples.

Results

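The cytosolic chaperonin CCT, also called TRiC, is assembled from 8 different subunits, and their genes *Tcp1*, *Cct2*, *Cct3*, *Cct4*, *Cct5*, *Cct6a*, *Cct7* and *Cct8* were followed here in mouse liver. The 8 genes were taken by their GENCODE symbol and are 8 of the 20622 genes with cytoplasmic RNA values, and of the 16269 genes with a transcript to which ribosome-protected fragments (RPFs) were assigned. An RPF is a stretch of mRNA that a ribosome covered when the rest was digested, and the count of RPFs reports how much of an mRNA was being translated. Each of 24 livers was sequenced for RPFs and for cytoplasmic RNA, which made 48 libraries. WT mice were wild-type, B mice carried Ctnnb1ex3/+ (a β-catenin allele that Cre converts to a stabilised form), M mice carried R26-LSL-MYC (a *MYC* transgene behind a stop cassette that Cre removes), and BM mice carried both. By their labels all were males of 2 to 4 months, on a mixed C57BL/6 background, and all, WT included, received AAV8.TBG.Cre, a virus that expresses Cre from the hepatocyte promoter TBG, at 2e+11 genome copies, which is stated in the labels as a dose per mouse and also as a concentration per ml. The general methods of the paper describe male and female mice, unlike these labels. Livers were taken at day 4 or day 10 after the virus, with 3 mice for each of the 4 genotypes at each day. Only hepatocytes were recombined by design, whereas the libraries hold RNA of the whole liver.

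CCT is a pair of stacked rings that close around a newly made protein and use ATP to let it fold inside. Each ring holds a single copy of every subunit, in the order *Cct2*, *Cct4*, *Tcp1*, *Cct3*, *Cct6a*, *Cct8*, *Cct7*, *Cct5*, so the subunits are needed in equal amounts. Its obligate clients are actin and tubulin, together with WD40-repeat proteins such as the mitotic activator Cdc20, and it is abundant in growing and dividing cells.

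Total counts per library ranged from 9742197 to 14380713 for RPFs and from 3254141 to 6540116 for RNA. A single CCT gene drew 1388 to 7601 RPFs and 437 to 1996 RNA counts in a library, so that none was near the detection limit. Levels are given as CPM, the counts of a gene per 1e+06 counts of the scaled library. The β-catenin targets *Glul* and *Axin2* were higher in every B and BM mouse than in every WT mouse of the same day, and *Myc* RPFs were 57.5 to 62.1 CPM in M and 44.4 to 59.2 CPM in BM at day 4, against 2.43 to 18.3 CPM in WT. *Myc* RNA did not separate these groups, at 26.56 to 29.27 CPM in WT, 28.89 to 34.88 CPM in M and 19.55 to 29.57 CPM in BM. Reads were aligned to mouse transcripts by a different program for each library type. Reads of the transgene and of the endogenous gene were not told apart, so no change of endogenous *Myc* is read from these values. BM mouse 1 of day 10 stood apart from the other mice of its group, with a deviation of 0.474 (SD over genes of log2 RPF CPM) against 0.149 to 0.319 in the rest of the mice, so results at day 10 are also given without it. In whole liver, fewer cells of a type and less RNA per cell cannot be told apart. Summed RPFs of the hepatocyte markers (7 of 7 detected) were 104822 to 116894 CPM in WT and 55599 to 66247 CPM in BM at day 4, when the 7 Kupffer markers were at 677.4 to 789.3 CPM in WT and 394 to 418.4 CPM in BM. The 7 endothelial markers summed to 784.3 to 877.8 CPM in WT and 615.7 to 691 CPM in BM, the 7 stellate markers to 718.3 to 762.5 CPM and 451.9 to 563.2 CPM, the 5 cholangiocyte markers to 85.69 to 133.4 CPM and 36.1 to 53.91 CPM, and the 6 blood markers to 570.9 to 618 CPM and 224.5 to 309.6 CPM. None of these markers was at 0 in the RPFs of all mice of either group. All 6 sums were thus lower in BM, the opposite of the CCT genes below, and their part in the results was not tested.

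RPFs of all 8 subunits made up a larger share of the scaled library in BM livers at day 4. The summed RPFs of the 8 genes were 1741, 1778 and 1788 CPM in the WT mice, and 2756, 2614 and 2500 CPM in the BM mice. M mice lay between, at 2262, 1983 and 2307 CPM, and B mice at 1705, 2015 and 1870 CPM overlapped WT. The RNA showed a like pattern, with 1324, 1388 and 1300 CPM in WT and 1992, 1807 and 1869 CPM in BM. M mice had 1628, 1485 and 1683 CPM of RNA and B mice 1255, 1341 and 1411 CPM. In both library types the WT and BM mice did not overlap, nor did the WT and M mice.

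**Figure D1:**
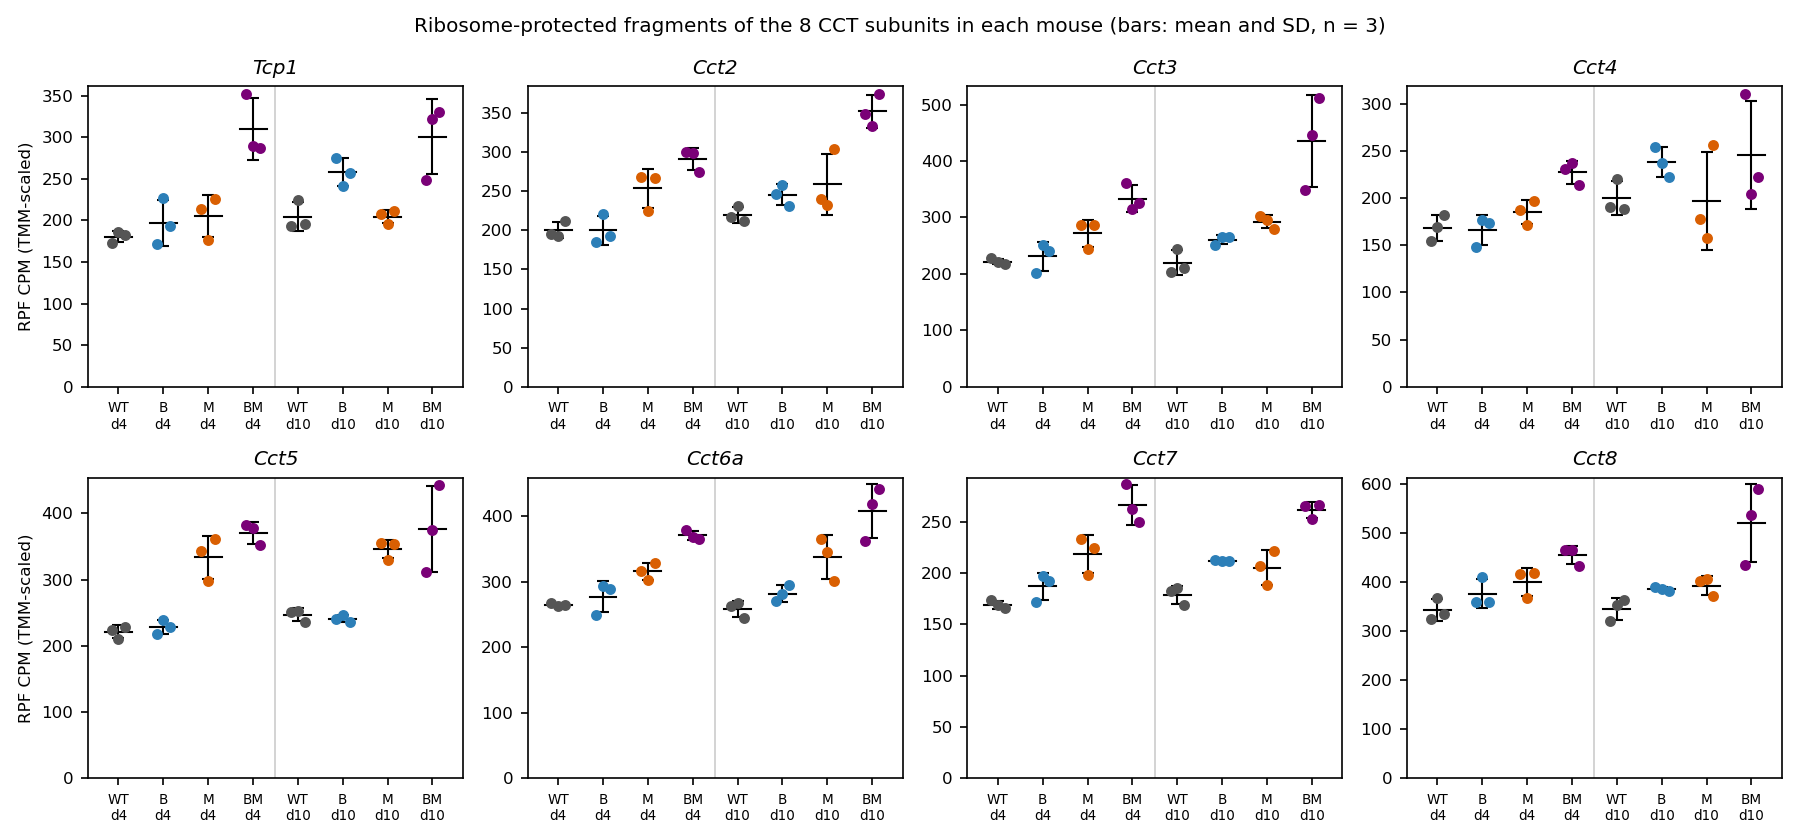
RPFs of each CCT gene in CPM (y axis), with a point for each of the 24 mice grouped by genotype and day (x axis) and a bar at the group mean. At day 4 every BM mouse lies above every WT mouse for all 8 genes.

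Promoters of the members are shown because the genes moved together. The RefSeq table (GRCm38.p6, 250 bases before the start searched on both strands) matched 7 of the 8 genes with 9 promoters, of which *Cct2* and *Cct5* have 2 each, and *Cct4* was not matched. The letters CCAAT were present in 4 of the 9, those of *Cct3*, *Cct6a*, *Cct7* and *Tcp1*, and in 33.8% of all 32851 promoters. The E-box letters CACGTG were in 0 of the 9 and in 6.02% of all promoters. The inverted heat shock units GAANNTTC were in 1 of the 9, a promoter of *Cct2*, and in 6.69% of all. The windows around each CCAAT are given on the plus strand with the motif in capitals, where ATTGG is CCAAT read on the other strand. A match is a description of letters and not of a bound site.
Tcp1, chr17:12916185-12916213, 132 bases before the start: atccctggctcaCCAATcaccgcagacgt
Cct3, chr3:88297049-88297077, 74 bases before: ctaatactgtcgATTGGcctatgtttttg
Cct3, chr3:88297090-88297118, 33 bases before: atgagtttggtgATTGGcggcacttcaga
Cct6a, chr5:129787285-129787313, 59 bases before: cgttggattaagCCAATcagcgggcggca
Cct6a, chr5:129787315-129787343, 29 bases before: gagggtcgccacCCAATggaggtgctctg
Cct7, chr6:85451306-85451334, 187 bases before: ggccagcggctgATTGGccgccacgcctg
Cct7, chr6:85451368-85451396, 125 bases before: aggccacttcctATTGGccaggagaagtg
Cct7, chr6:85451398-85451426, 95 bases before: aaccgggcgctgATTGGccaaaactctta

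The comparison of BM with WT at day 4 asks what combined β-catenin and MYC activation did during the proliferative phase. In RPFs, 8 of 8 CCT genes were higher at an adjusted p under 0.1, where 26.2% of the genes tested were higher. The median change of the 8 was 0.59 on the log2 scale, and that of all genes tested was close to 0. For each of the 8, every BM mouse was above every WT mouse, as was so for 25.6% of all genes. *Tcp1*, the founding member named for the mouse t-complex, had 173.0, 186.1 and 182.2 CPM in WT and 352.3, 289.9 and 286.4 CPM in BM, a 1.74-fold rise (log2 0.80 ± 0.091 SE, adjusted p = 4.04e-05). The 3 BM values were well above the 3 WT values, and mouse 1 was the highest of them.

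*Cct2*, *Cct4* and *Cct5* lie on the side of the ring that binds ATP more tightly. *Cct5*, in which mutations cause a hereditary sensory neuropathy, had 224.3, 210.9 and 229.2 CPM in WT and 382.1, 378.3 and 352.1 CPM in BM (1.70-fold, log2 0.77, adjusted p = 1.69e-05). For *Cct2*, which can also act as a receptor in the autophagy of protein aggregates, WT mice had 195.7, 192.8 and 211.7 CPM and BM mice 300.1, 298.7 and 274.5 CPM (1.48-fold, log2 0.56, adjusted p = 0.000169). *Cct4* had 154.6, 169.0 and 182.0 CPM in WT and 230.8, 237.0 and 213.9 CPM in BM (1.37-fold, log2 0.46, adjusted p = 0.00129). On this side of the ring the groups were separate for all 3 genes, and the gap was widest for *Cct5*.

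*Cct3*, *Cct6a* and *Cct8* lie on the side that uses ATP less. *Cct3* had 227.5, 220.3 and 217.7 CPM in WT and 360.5, 314.2 and 325.7 CPM in BM (1.53-fold, log2 0.61, adjusted p = 9.16e-05). The values of *Cct6a*, whose paralog *Cct6b* is expressed in testis, were 267.2, 262.7 and 265.0 CPM in WT and 378.7, 369.3 and 365.4 CPM in BM (1.42-fold, log2 0.51, adjusted p = 0.000173). *Cct8* had 325.1, 368.1 and 334.0 CPM in WT and 464.5, 464.2 and 432.6 CPM in BM (1.35-fold, log2 0.43, adjusted p = 0.00127). *Cct8* was thus the gene with the most RPFs and the smallest fold among the 8. *Cct7* completes the ring, and it had 173.5, 168.5 and 165.8 CPM in WT and 286.9, 262.0 and 249.2 CPM in BM (1.60-fold, log2 0.68, adjusted p = 4.37e-05). No mouse of either group overlapped the other group in any of these 4 genes.

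Cytoplasmic RNA of the 8 genes rose as well. In RNA, 8 of 8 were higher at day 4 in BM than in WT at an adjusted p under 0.1, where 21.3% of genes tested were higher, and for all 8 every BM mouse was above every WT mouse, against 22.8% of all genes. *Tcp1* RNA was 164.1, 172.3 and 161.0 CPM in WT and 314.7, 249.6 and 262.7 CPM in BM (1.66-fold, log2 0.73, adjusted p = 7.61e-05). *Cct5* RNA was 208.8, 195.6 and 196.5 CPM in WT and 306.7, 301.1 and 307.7 CPM in BM (1.52-fold, log2 0.61, adjusted p = 0.000106). These 2 genes led in RNA as they did in RPFs. The RNA of *Cct2* and *Cct6a* rose by 0.54 on the log2 scale, that of *Cct4* and *Cct7* by 0.43 and that of *Cct8* by 0.42. *Cct3* changed least in RNA, with 211.3, 247.4 and 236.6 CPM in WT and 292.0, 250.1 and 287.4 CPM in BM (1.20-fold, log2 0.26 ± 0.10 SE, adjusted p = 0.064). Its second BM mouse lay just above the highest WT mouse, and the call was lost without WT mouse 1 or 3 or BM mouse 1 or 3. With all 24 mice in a single fit it was lost as well (adjusted p = 0.107).

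**Figure D2:**
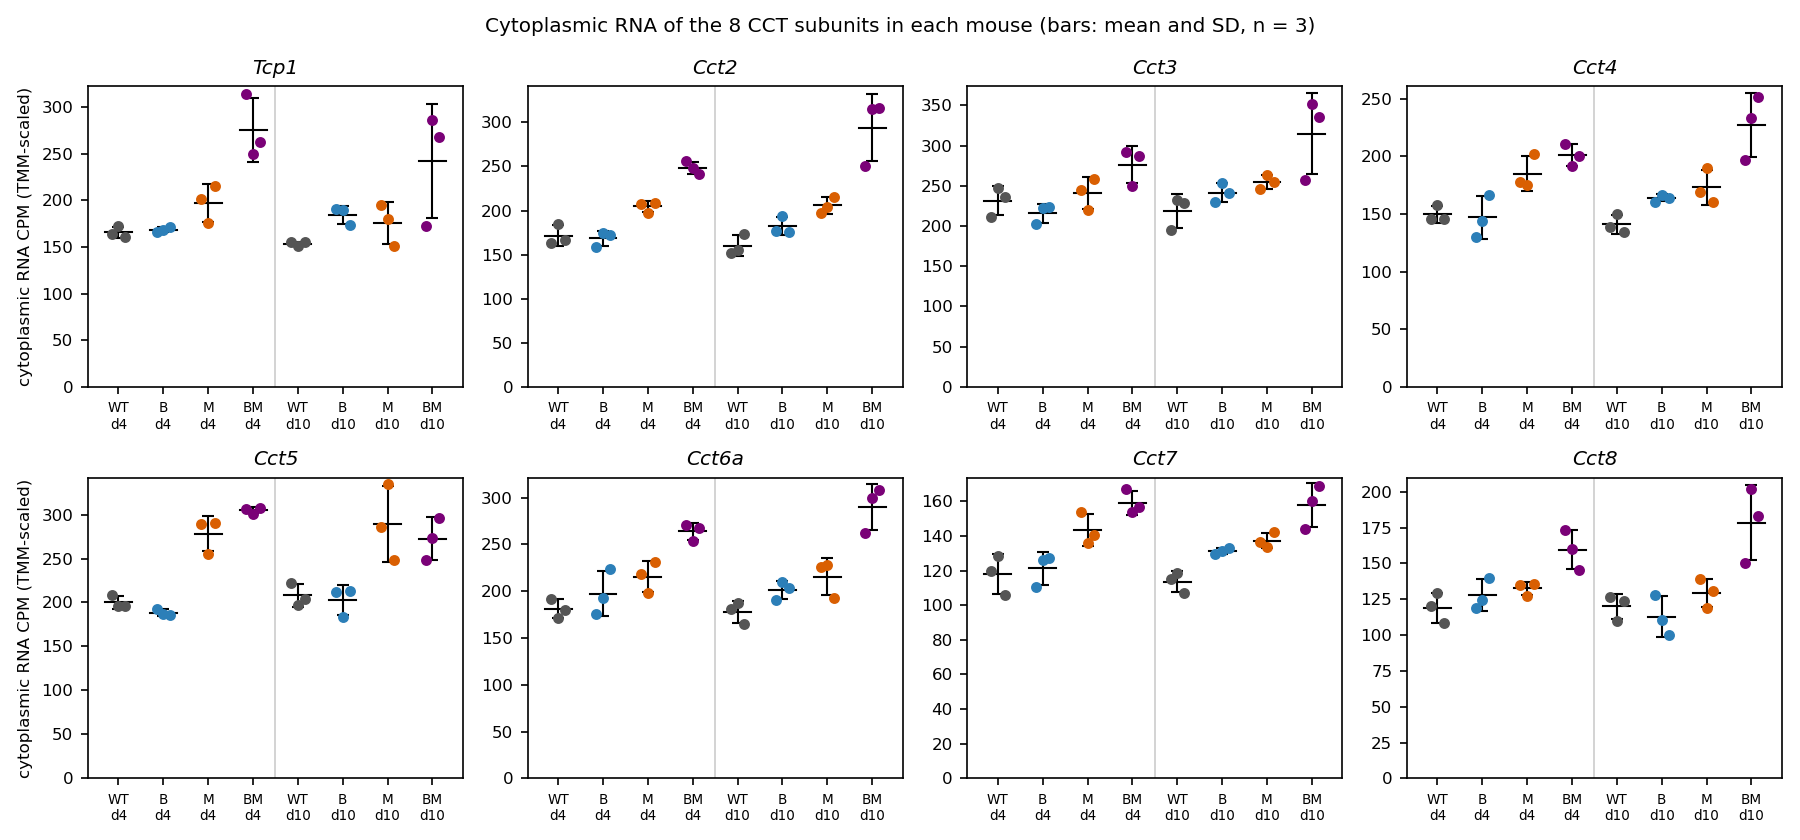
Cytoplasmic RNA of each CCT gene in CPM (y axis), with a point for each of the 24 mice grouped by genotype and day (x axis) and a bar at the group mean. BM mice of day 4 lie above WT mice for all 8 genes, with the smallest gap for *Cct3*.

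In M mice most subunits rose by less. At day 4, 6 of 8 were higher in M than in WT in RPFs (18.5% of genes tested) and 6 of 8 in RNA (13.5%). Every M mouse was above every WT mouse in RPFs for 5 of the 8, the exceptions being *Tcp1*, *Cct4* and *Cct8* (20.3% of all genes), and in RNA for 6, the exceptions being *Cct3* and *Cct8* (18.3%). Marker sums moved with genotype here too, in RPFs of M against the WT ranges above: 69811 to 86539 CPM for hepatocytes, 602.6 to 767.8 CPM for endothelial, 553.7 to 656.5 CPM for stellate, 43.79 to 62.75 CPM for cholangiocyte and 290.2 to 385 CPM for blood markers, all below WT, and 440.5 to 1236 CPM for Kupffer markers, overlapping it. Their part was not tested. Among the members, *Cct5* moved most, with 342.6, 298.1 and 361.0 RPF CPM in M against 224.3, 210.9 and 229.2 CPM in WT (1.54-fold, log2 0.62 ± 0.086 SE, adjusted p = 0.000755), and its RNA rose by 0.48 on the log2 scale (adjusted p = 0.0028). All M mice were above all WT mice in both library types. RPFs of *Cct7* rose by 0.40, those of *Cct2* by 0.37, of *Cct3* by 0.33, of *Cct6a* by 0.29 and of *Cct8* by 0.26 on the log2 scale. The RPF call of *Cct8* was lost without mouse 1 or 3 of WT or of M (adjusted p from 0.119 to 0.199) and with all 24 mice in a single fit (0.169), where that of *Cct3* was lost as well (0.111). *Tcp1* had 213.3, 176.8 and 225.4 RPF CPM in M, a log2 difference of 0.22 from WT (95% interval 0.01 to 0.43, adjusted p = 0.124), and M mouse 2 lay within the WT range. Without M mouse 2 the difference was 0.31 and was called (adjusted p = 0.0221). *Cct4* differed by 0.17 (-0.03 to 0.36, adjusted p = 0.194) in RPFs, whereas its RNA rose by 0.31 (adjusted p = 0.0387). In RNA the count in M was 1 to 6 of 8 when a mouse was left out and 2 of 8 with DESeq2. Leaving out mouse 1 of WT or of M gave 2 of 8, and leaving out mouse 3 of either gave 1 of 8.

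In B mice no subunit was called at day 4. With edgeR's quasi-likelihood test, 0 of 8 were called in RPFs (6.21% of genes were higher) and 0 of 8 in RNA (4.41%), and DESeq2 called 0. None of the 8 had an unadjusted p under 0.05 in RPFs (21.5% of all genes in either direction) or in RNA (17.3%). No member had every B mouse above every WT mouse, in RPFs (13.4% of all genes) or in RNA (11.1%). For *Cct5* RNA every B mouse was lower, at 193.0, 187.2 and 185.6 CPM against 208.8, 195.6 and 196.5 CPM in WT (log2 -0.09, 95% interval -0.28 to 0.10). The interval includes 0, and the share of all genes with every B mouse lower was not counted, so nothing is read from this. The RPF differences ran from -0.03 for *Cct4* (95% interval -0.24 to 0.18) to 0.13 for *Cct7* (-0.05 to 0.31).

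BM was then set against each single genotype at day 4. Against B, 8 of 8 were higher in BM both in RPFs (23.2% of genes tested) and in RNA (18.1%), by 0.31 (*Cct8*) to 0.74 (*Cct5*) in RPFs and by 0.34 (*Cct8*) to 0.72 (*Tcp1*) in RNA on the log2 scale. Against M, 5 of 8 were higher in RPFs (18.8%) and 4 of 8 in RNA (14.6%). *Tcp1* separated BM from M most, with 352.3, 289.9 and 286.4 against 213.3, 176.8 and 225.4 RPF CPM (1.49-fold, log2 0.58 ± 0.11 SE, adjusted p = 0.00403), and in RNA by 0.48 (adjusted p = 0.00419). The lowest BM mouse was above the highest M mouse in both. RPFs of *Cct3* and *Cct4* were higher in BM than in M by 0.28, those of *Cct7* by 0.27 and those of *Cct6a* by 0.22. *Cct5*, the gene with the largest change in M, differed by only 0.13 between BM and M in RPFs (95% interval -0.06 to 0.33, adjusted p = 0.281), and *Cct2* and *Cct8* by 0.18 and 0.17. In RNA the genes called besides *Tcp1* were *Cct6a* (0.29), *Cct2* (0.28) and *Cct8* (0.27). Without M mouse 2, whose values were the lowest of its group in the RPF sum, 2 of 8 were called in RPFs and 2 of 8 in RNA. The RPF call of *Cct6a* was also lost without M mouse 1 (adjusted p = 0.117), and the RNA call of *Cct8* without BM mouse 1 (adjusted p = 0.162). That of *Cct6a* in RPFs was lost too with the replicate number as a block (0.1004) and with all 24 mice in a single fit (0.1014). The single fit also lost *Cct3* (0.103) and *Cct4* (0.215) in RPFs and *Cct8* (0.138) in RNA. All 6 marker sums were lower in BM than in B without overlap in RPFs, where B mice had 86565 to 104520 CPM for hepatocyte, 555 to 644.2 CPM for Kupffer, 808.5 to 890.4 CPM for endothelial, 689.9 to 790.9 CPM for stellate, 59.64 to 63.8 CPM for cholangiocyte and 439 to 688.4 CPM for blood markers. Against M, the hepatocyte and Kupffer sums were lower in BM without overlap, and the other 4 overlapped. Of the 7 Kupffer markers, 6 were called lower in BM in RPFs against B (median -0.51), where 21.5% of genes tested were lower. Against M, 6 were called lower as well (median -0.93, 19.3% of genes tested). The other marker lists are given as sums only. Their part was not tested. These comparisons share the BM mice with the one against WT, so their values are given side by side and no overlap is read from them.

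**Figure D3:**
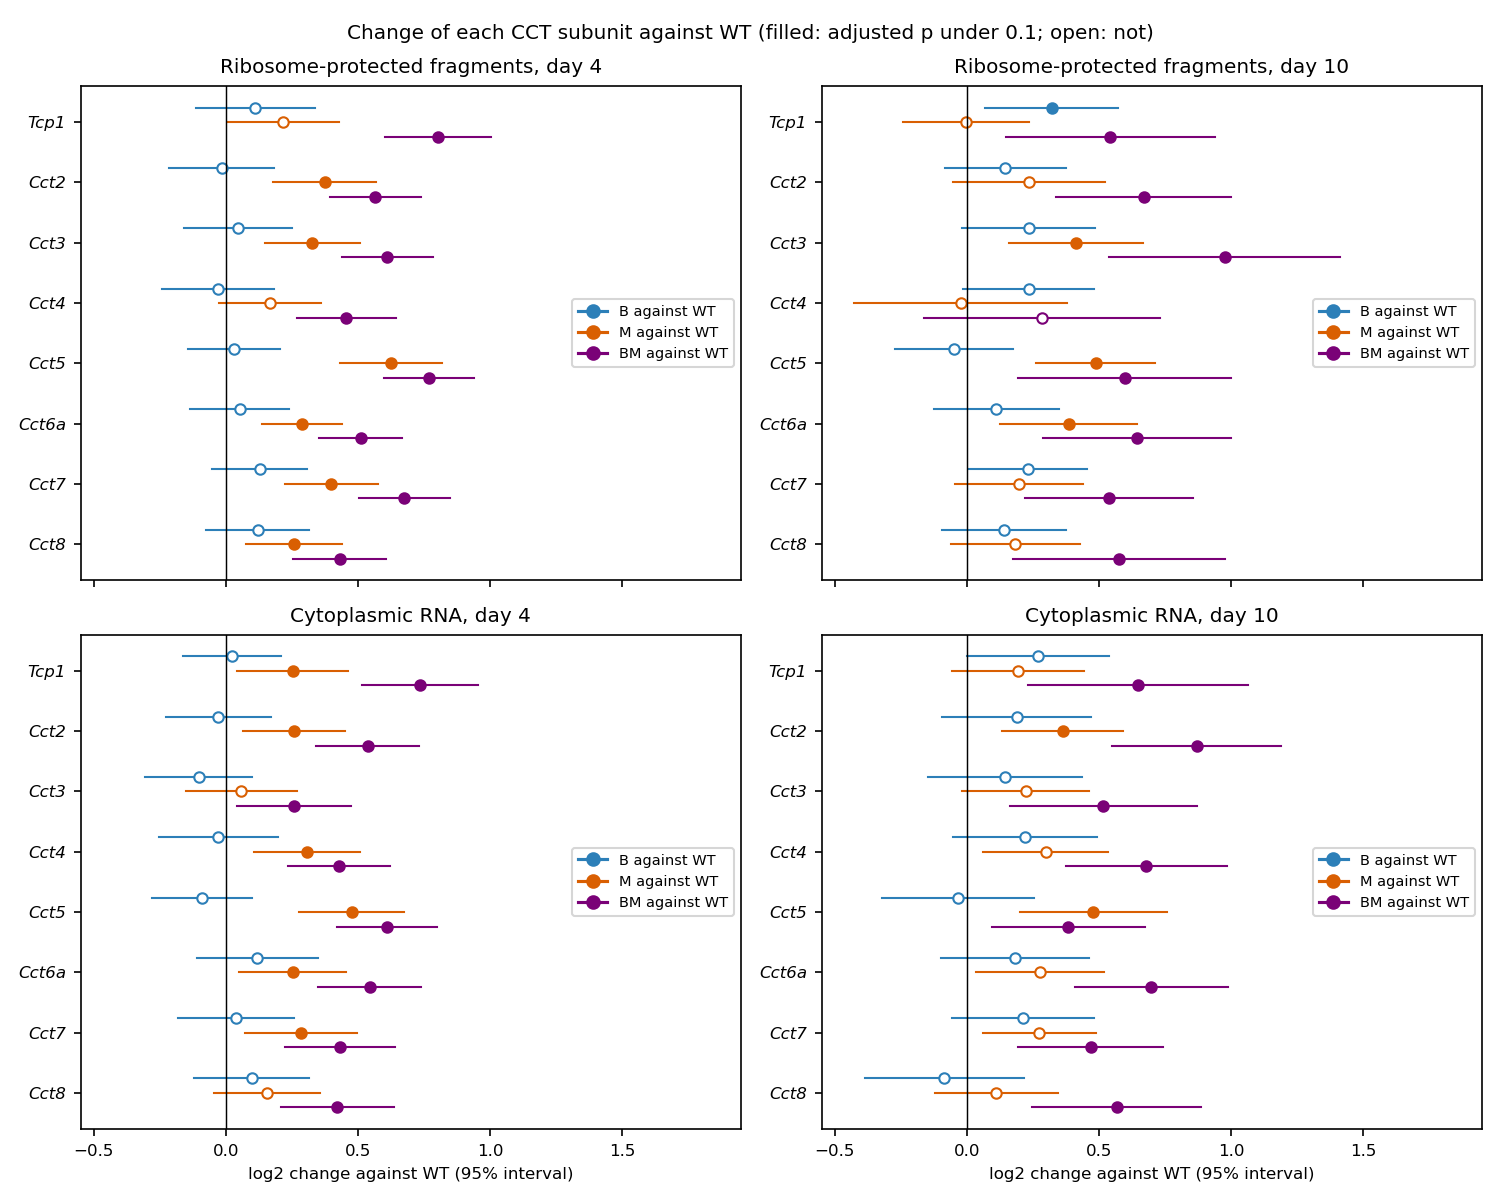
Fitted log2 change of each CCT gene (x axis) against WT of the same day for RPFs and RNA, with 95% intervals, for B, M and BM in panels of days 4 and 10, and with filled points at an adjusted p under 0.1. Intervals of the 8 genes lie to the right of 0 for BM at day 4 and cross 0 for B at day 4.

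At day 10 the subunits were still higher in BM than in WT livers. The summed RPFs were 1822, 1979 and 1818 CPM in WT and 2630, 2891 and 3178 CPM in BM, and the summed RNA was 1285, 1304 and 1292 CPM in WT and 1682, 2123 and 2127 CPM in BM. Every BM mouse was above every WT mouse in both sums, and BM mouse 1 lay nearest to WT. Hepatocyte markers summed to 103443 to 130003 RPF CPM in WT and 49727 to 60804 CPM in BM at day 10, and Kupffer markers to 547.5 to 763.8 CPM and 854 to 915 CPM. Stellate markers were lower in BM, at 608.8 to 712.4 against 756.8 to 886.9 RPF CPM and 226 to 249.6 against 473.8 to 570.9 RNA CPM. Endothelial markers were lower without overlap in RNA only, at 264.1 to 325.2 against 431.1 to 466.2 CPM, and RPF sums of endothelial, cholangiocyte and blood markers overlapped. Their part was not tested. In RPFs, 7 of 8 were higher in BM than in WT (24.5% of genes tested), and every BM mouse was above every WT mouse for the same 7 (26.2% of all genes). In RNA, 8 of 8 were higher (22.9%), without overlap of the mice for any of the 8 (24.3%). Without BM mouse 1 the counts were 7 in RPFs and 8 in RNA. Leaving out other mice changed them. In RPFs, leaving out mouse 1 of WT or mouse 3 of BM gave 4 of 8 called, and leaving out mouse 3 of WT gave 3 of 8. In RNA it gave 6 to 8 of 8.

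*Cct3* showed the largest RPF difference of the 8 at day 10, with 203.8, 244.9 and 209.9 CPM in WT and 348.7, 446.4 and 510.8 CPM in BM (1.97-fold, log2 0.98 ± 0.19 SE, adjusted p = 0.00679). Its RNA was 195.0, 232.8 and 229.1 CPM in WT and 257.2, 352.4 and 335.3 CPM in BM (1.43-fold, log2 0.52, adjusted p = 0.0298). In both, BM mouse 1 was nearest to WT. *Cct4* showed the reverse order of the library types. Its RPFs were 190.8, 220.7 and 188.4 CPM in WT and 310.5, 204.2 and 222.6 CPM in BM, a log2 difference of 0.28 (95% interval -0.16 to 0.73, adjusted p = 0.277), while its RNA rose from 138.7, 150.3 and 134.0 CPM to 196.5, 233.0 and 251.2 CPM (1.60-fold, log2 0.68, adjusted p = 0.00489). BM mouse 1 had the most *Cct4* RPFs and the least *Cct4* RNA of its group, and among the others mouse 2 lay within the WT range of RPFs. The remaining RPF changes were 0.67 for *Cct2*, 0.64 for *Cct6a*, 0.60 for *Cct5*, 0.58 for *Cct8* and 0.54 for *Cct7* and *Tcp1*. In RNA they were 0.87 for *Cct2*, 0.70 for *Cct6a*, 0.65 for *Tcp1*, 0.57 for *Cct8*, 0.47 for *Cct7* and 0.38 for *Cct5*. Several of these calls rested on single mice. In RNA, *Cct5* lost its call without mouse 2 or 3 of WT or of BM (adjusted p from 0.124 to 0.177), *Cct3* without WT mouse 1 (0.147) or BM mouse 2 (0.121), and *Cct7* without WT mouse 3 (0.104). In RPFs, *Cct8* lost it when any mouse other than BM mouse 1 was left out, *Tcp1* without mouse 1 or 3 of WT or mouse 2 or 3 of BM, *Cct5* without mouse 1 or 3 of WT or mouse 3 of BM, and *Cct7* without WT mouse 3, at adjusted p from 0.101 to 0.151.

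In M at day 10, 3 of 8 were higher in RPFs (10.6% of genes tested), *Cct5* by 0.49, *Cct3* by 0.41 and *Cct6a* by 0.38 on the log2 scale, and 2 of 8 in RNA (8.53%), *Cct5* by 0.48 and *Cct2* by 0.36. The RPF count was 1 when mouse 1 or 3 of WT or mouse 1 or 2 of M was left out, and 1 with the replicate number as a block. In RNA it was 1 when a single WT mouse was left out, 0 without M mouse 1 or 2, 4 without M mouse 3, and 1 with the block. *Cct5* RPFs were 251.9, 252.9 and 235.4 CPM in WT and 355.4, 329.9 and 353.2 CPM in M (1.40-fold, adjusted p = 0.0193). The 2 groups did not overlap. The same held for 6 of 8 genes in RPFs (17.8% of all genes) and for 6 of 8 in RNA (15.4%). *Tcp1* and *Cct4* were the exceptions in RPFs, *Tcp1* and *Cct8* in RNA. Beside these values, RPF sums of hepatocyte markers were 65715 to 68542 CPM in M and 62024 to 64511 CPM in B at day 10, and of stellate markers 581.5 to 648.8 CPM and 416.3 to 637.3 CPM, all below WT. Endothelial (595.2 to 651.8 CPM, against 787.4 to 945.9 CPM in WT) and blood markers (257.5 to 365.4 CPM, against 467.9 to 601.8 CPM) were below WT in M, and the other sums of M and B overlapped WT. Their part was not tested. In B at day 10, *Tcp1* was the 1 gene of 8 called in RPFs (13.1%), with 193.4, 224.2 and 196.1 CPM in WT and 275.4, 241.3 and 257.5 CPM in B (1.25-fold, log2 0.32, adjusted p = 0.0789), and 0 of 8 were called in RNA (8.14%) by edgeR or DESeq2, with 0 at an unadjusted p under 0.05 (24.6% of all genes in either direction). The call of *Tcp1* was lost when any of 5 of the 6 mice was left out. Every B mouse was nonetheless above every WT mouse in RPFs for 7 of 8, the exception being *Cct5* (19.4%), and in RNA for 5 of 8, the exceptions being *Cct3*, *Cct5* and *Cct8* (14.8%).

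The number of members called also depended on how libraries were scaled. With library totals alone, the median change of all genes in BM at day 4 was 0.42 in RPFs and 0.54 in RNA, against -0.0007 and -0.0064 with TMM, the scaling to the typical gene used for the reported values, and that of the members was 1.02 and 1.03, so that the median of the 8 stayed 0.59 above that of all genes in RPFs and 0.49 above it in RNA. The calls then rose to 7 of 8 in RPFs (33.9% of genes tested) and 5 of 8 in RNA (19.6%) in B at day 10, to 6 (30.5%) and 7 (16.9%) in M at day 10, and to 8 (39%) and 8 (33.6%) in BM against M at day 4. Changes are therefore read relative to the median gene.

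The days were compared in 2 ways. In WT mice, 0 of 8 CCT genes differed between day 10 and day 4 in RPFs (4.44% of genes were called in either direction) or RNA (2.32%) by edgeR or DESeq2. At an unadjusted p under 0.05 there was 1 of 8 in RPFs, *Cct4* (16.1% of all genes), and 0 in RNA (11.6%). The difference between the BM effect at day 10 and at day 4 was called for 0 of 8 in RPFs, although 35.7% of all genes tested were called in one direction or the other, and for 0 of 8 in RNA (29.9%). The nearest in RPFs was *Cct3*, at 0.37 (95% interval -0.05 to 0.80, adjusted p = 0.18). For the M effect the counts were 0 of 8 in RPFs (1.18%) and 0 of 8 in RNA (1.2%). DESeq2 called 0 for either effect, and 0 of 8 were at an unadjusted p under 0.05, where 39.4% of all genes in RPFs and 35.3% in RNA were for the BM effect, and 12.5% and 10.1% for the M effect. Without BM mouse 1 of day 10, the BM effect differed for *Cct3* in RPFs by 0.49 (adjusted p = 0.0113) and for *Cct4* by -0.39 (adjusted p = 0.0348), where 57.3% of all genes were called, and in RNA for *Cct2*, *Cct3* and *Cct4*, all higher at day 10 (43.5%).

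Translation efficiency (TE), the change of RPFs beyond that of RNA, was tested as an interaction of genotype and library type. These fits did not pair the 2 libraries of a mouse. At an adjusted p under 0.1 they called 0 of 8 CCT genes in any of the 11 comparisons, by edgeR or by DESeq2. The share of all genes called in either direction was 0.0488% for B, 0.971% for M and 2.23% for BM against WT at day 4. It was 0.0564% for B, 0% for M and 0.259% for BM at day 10. It was 0.0943% for BM against M, 1.12% for BM against B, 0.501% between the days of WT, 0% for the difference of the M effects and 0.31% for that of the BM effects. With so few of all genes called, a count of 0 among 8 is near what all genes gave. At an unadjusted p under 0.05 there was 1 of 8 in M and 1 of 8 in BM at day 4, *Cct3* in both, and 2 of 8 between the WT days, *Cct4* and *Tcp1*, with 0 in the other 8 comparisons. Of all genes, 7.28%, 10.1% and 4.72% were at that p in these 3 comparisons, and 1.94% to 9.99% in the other 8. The counts above are thus those of unpaired fits. With the mouse as a block, edgeR called *Cct3* in BM at day 4 (adjusted p = 0.0367), when 6.17% of all genes were called.

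*Cct3* had the largest TE difference in BM at day 4. Its log2 TE, the log2 ratio of RPF CPM to RNA CPM, was 0.11, -0.17 and -0.12 in the WT mice and 0.30, 0.33 and 0.18 in the BM mice. The 3 BM mice were above the 3 WT mice, by a fitted 0.35 (95% interval 0.08 to 0.61, adjusted p = 0.301). Both libraries came from the same mouse, and with the mouse as a block the difference was 0.35 with an adjusted p of 0.0367, at which 6.17% of all genes were called. *Cct7* followed at 0.24 (-0.02 to 0.49), and the other 6 lay between -0.04 (*Cct6a*) and 0.15 (*Cct5*). In M at day 4, *Cct3* differed by 0.27 (0.00 to 0.54).

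**Figure D4:**
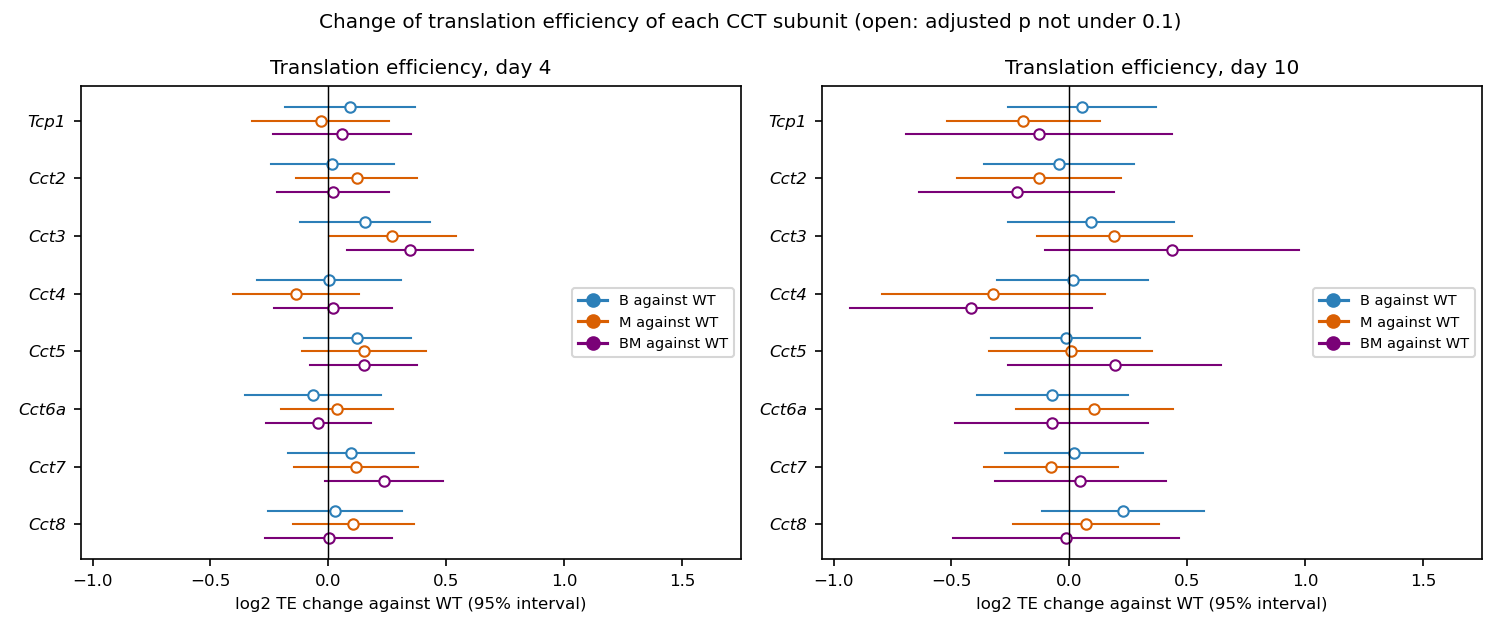
Fitted log2 change of TE of each CCT gene (x axis) in each comparison with WT, with 95% intervals. Most intervals cross 0, and *Cct3* in BM at day 4 lies at 0.35 (0.08 to 0.61).

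At day 10 the TE of *Cct4* varied widely between mice in M and BM. Its log2 TE was 0.46, 0.56 and 0.49 in WT and 0.66, -0.19 and -0.17 in BM, and it was 0.07, -0.27 and 0.67 in M. BM mouse 1 lay above all WT mice and the other BM mice below them, and the fitted difference was -0.42 (95% interval -0.93 to 0.09, adjusted p = 0.591). Without BM mouse 1 it was -0.71 (adjusted p = 0.00999), when 21.5% of all genes were called, and the difference of the BM effects in TE was -0.70 (adjusted p = 0.0207), when 13.2% were called. *Cct3* in BM at day 10 differed in TE by 0.44 (-0.10 to 0.98). *Cct2* differed by -0.22 and *Cct5* by 0.19, and the other 4 lay between -0.13 and 0.05. The 95% intervals of the 8 genes in BM at day 10 together spanned -0.93 to 0.98, and each of them included 0.

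The 8 subunits were compared per length to ask how even their supply was. RPFs per 1000 codons and per 1e+06 RPFs of the library, with the first 20 and last 10 codons left out, were 558.5 ± 36.7 for *Cct8* in WT at day 4 (SD, n = 3), 446.8 ± 7.374 for *Cct6a*, 366.2 ± 14.95 for *Cct5* and 364 ± 12.11 for *Cct3*. Lower values were found for *Cct2* (334.6 ± 14.15), *Tcp1* (319.6 ± 10.09), *Cct7* (303.1 ± 10.2) and *Cct4* (279.6 ± 19.77). Mice did not overlap between *Cct8* and *Cct6a*, *Cct6a* and *Cct5*, or *Cct3* and *Cct2*, while the other neighbours in this order overlapped. *Cct8*, whose level has been linked to how much chaperonin is assembled, had the highest RPF density in 24 of 24 mice, at 1.25 to 1.64 times the mean of the 8, and *Cct4* the lowest in 17 of 24.

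RNA per length gave another order. In TPM, WT mice of day 4 had 142.8 ± 15.95 for *Cct3*, 132.6 for *Cct2*, 127.9 for *Cct5* and 126.6 for *Tcp1*, whose mice overlapped from neighbour to neighbour. Next came *Cct6a* (80.54), *Cct7* (69.57) and *Cct4* (69.44), and last *Cct8* (57.42), which had the lowest TPM in 23 of 24 mice. *Cct8* thus stood at opposite ends of the 2 orders. Its log2 ratio of RPF density to TPM ran from 2.65 to 3.38 over the mice (median 3.06) and was the highest of the 8 in all 24 mice, where the medians of the other genes lay between 1.17 (*Tcp1*) and 2.15 (*Cct6a*). The 2 scales have different units, so only the differences between genes can be read from this ratio. TPM also depends on the annotated transcript length, which differs between the deposited values and GENCODE vM39. It was 2394 and 3480 bases for *Cct8*, 1853 and 3974 for *Cct5*, 2484 and 4735 for *Cct4*, and 1977 and 2111 for *Cct3*. The order in TPM is uncertain to that extent. *Tcp1*, *Cct3*, *Cct5*, *Cct6a*, *Cct7* and *Cct8* overlap a protein-coding gene on the other strand (GRCm39), and the sources used here do not say whether RNA counting used strand, so their RNA levels are uncertain in that respect.

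**Figure D5:**
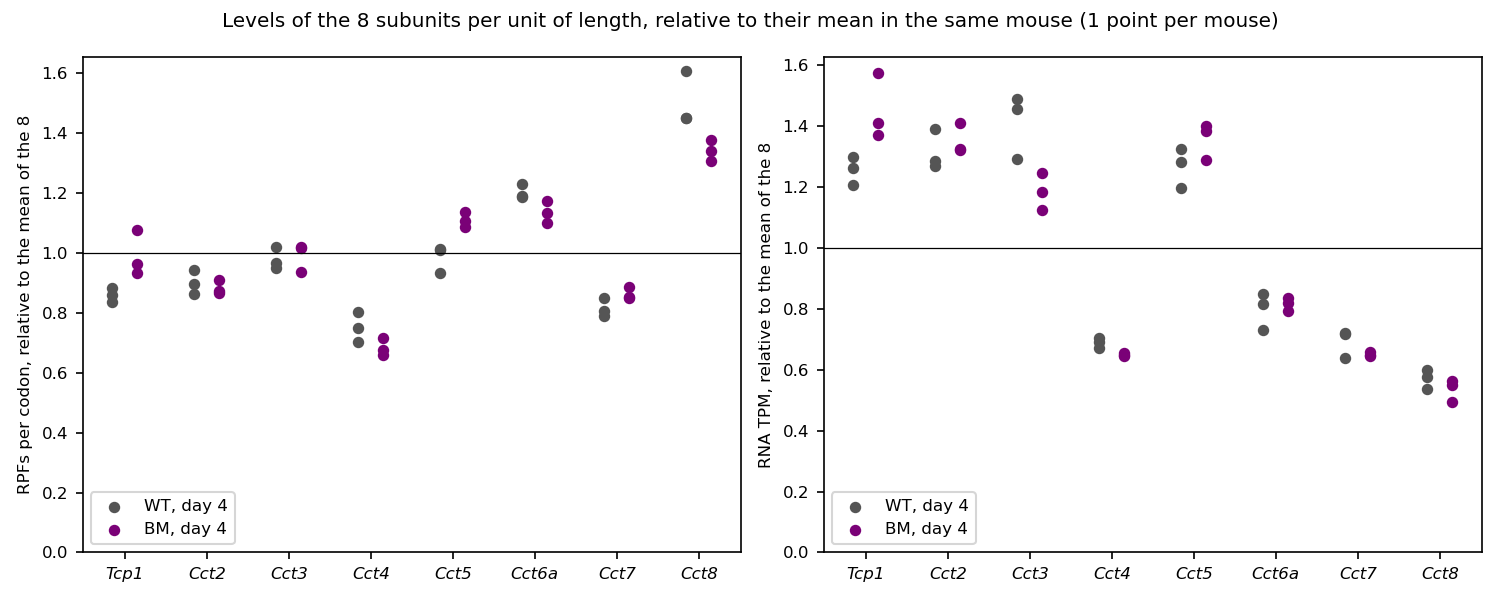
Level of each CCT gene per length, relative to the mean of the 8 genes in the same mouse (y axis), for RPFs per 1000 codons and for RNA TPM, with a point per mouse. *Cct8* is highest in RPF density in 24 of 24 mice and lowest in TPM in 23 of 24.

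Across the 24 mice the subunits varied together. Pearson's r of log2 RPF CPM between members ranged over the 28 pairs from 0.348 (*Cct4* with *Cct6a*) to 0.955 (*Cct3* with *Cct6a*), with a median of 0.826. In RNA it ranged from 0.596 (*Cct5* with *Cct8*) to 0.941 (*Cct4* with *Cct6a*), with a median of 0.817. The pair with the lowest r in RPFs was thus the pair with the highest r in RNA. The points of these correlations share libraries and genotype, and they are given as a description. Outside the members and the lists below, the genes most like the mean of the 8 in RPFs, among 11446 genes, were *Ncl* (r = 0.958), the nucleolar protein nucleolin, *Prmt1* (0.949), an arginine methyltransferase, *Mybbp1a* (0.948), *Gars1* (0.947), the glycyl-tRNA synthetase, and *Ruvbl2* (0.941). *Ncl* RPFs averaged 233.3 CPM in WT and 672.2 CPM in BM at day 4. In RNA, among 11673 genes, they were *Tomm70a* (0.965), an import receptor of mitochondria, *Abce1* (0.961), a ribosome recycling factor, *Atr* (0.958), *Ncl* (0.956) and *Pa2g4* (0.945).

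Partners and clients of CCT were counted in RPFs of BM at day 4, where 26.2% of genes tested were higher and 24.7% lower. Of the 6 prefoldin subunits, which hand unfolded actin and tubulin to CCT, 3 rose and 0 fell, with a median of 0.17. *Vbp1* rose by 0.81, from 19.67 to 21.88 CPM in WT to 32.96 to 39.48 CPM in BM, *Pfdn4* by 0.65 and *Pfdn2* by 0.17, while *Pfdn5* was at -0.20 and not called. In TE, *Pfdn4* was the 1 prefoldin gene called, higher by 0.84 (adjusted p = 0.0893). Of 3 phosducin-like co-chaperones tested, 0 rose and 1, *Txndc9*, fell by 0.54, with a median of -0.18. *Txndc9* was also called lower in TE, at -0.64 (adjusted p = 0.0876), and *Pdcl2* did not pass the filter on low counts. The chaperonin-like *Bbs10* and *Mkks* were not called, at 0.05 and 0.03, and *Cct6b*, *Cct8l1* and *Bbs12* did not pass the filter. Of 5 tubulin folding cofactors, 1 rose, *Tbcd* by 0.28, with a median of 0.07.

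Of 11 actin and tubulin genes, 5 rose and 3 fell, with a median of 0.18. *Tubb6* rose by 2.24, from 10.8 to 15.26 CPM in WT to 50.19 to 76.27 CPM in BM, *Tubb5* by 1.65 and *Tuba1b* by 0.92, and *Tubb2b* fell by 0.88. The 1 of the 11 called in TE was *Tubb5*, higher by 1.01. Tubulin genes are near-identical in their coding sequence, so how reads were divided among them is uncertain. Of 8 other clients, 6 rose and 1 fell, with a median of 0.44. *Cdc20* RPFs were 0.8498 to 2.261 CPM in WT and 121.6 to 206.9 CPM in BM. Those of the mitotic kinase *Plk1* were 0.4856 to 0.7912 CPM and 40.82 to 71.93 CPM. In TE, *Cdc20* and *Plk1* were the 2 genes of the 8 called. *Plk1* RPFs did not pass the filter on low counts between the WT days. Both genes were low in WT, with *Cdc20* RNA at 1.559 to 3.119 CPM. They passed the filter here through the BM mice, where they are high. Their calls in RPFs and TE thus had to follow, no fold is given, and they support nothing. Both are among the 6 that rose. *Hdac3* rose by 0.53 and *Mlst8*, a subunit of mTOR complexes, by 0.50. Of 14 other chaperone genes, 7 rose and 5 fell, with a median of 0.14. *Hspd1*, the mitochondrial chaperonin, rose by 0.88, from 571.4 to 642.8 CPM in WT to 988.4 to 1137 CPM in BM, and *Hsf1*, the heat shock factor, by 0.49, whereas *Dnajb1* and *Bag3*, both heat shock-inducible, fell by 0.91 and 0.74. The mice of the 2 groups overlapped for these 3 genes, at 5.948 to 6.217 CPM in WT and 6.152 to 11.06 CPM in BM for *Hsf1*, 30.41 to 55.23 and 14.36 to 30.69 CPM for *Dnajb1*, and 45.33 to 64.34 and 24.31 to 45.65 CPM for *Bag3*. The 8 CCT genes, with 8 of 8 higher and a median of 0.59, stand beside these lists as values, and no test of the difference between lists was made.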

How the data were processed

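RPF and cytoplasmic RNA libraries came from 24 mice, and genotype, day and replicate number came from the labels, in which each sample is an individual mouse and no batch is given. RPF reads were trimmed by the authors with cutadapt 1.18. The authors then removed rRNA and tRNA reads, aligned with BBmap to the most abundant transcript of each gene (GENCODE vM27, GRCm39), removed duplicates by molecular identifiers and deposited raw counts over coding sequences, leaving out 20 codons at the start and 10 at the end. For RNA, the authors aligned with Bowtie2 2.3.5.1 and deposited RSEM 1.3.3 expected counts per isoform, which were summed per gene and rounded, and TPM values, which were used only for levels per length. The deposited FPKM and isoform percent values were not used. Library totals had medians of 12503695 (RPFs) and 5077216 (RNA).

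Tests used edgeR 4.0.16 in R 4.3.3: the quasi-likelihood F test on TMM-scaled counts of the groups compared, genes passing filterByExpr (minimum count 10, total 15), Benjamini-Hochberg adjustment over all genes tested and a threshold of 0.1. All 8 members passed the filter in every comparison. TE was the interaction of group and library type, without pairing the libraries of a mouse except where a block is named. SEs were derived from the F statistic, and 95% intervals from its degrees of freedom. P-values of DESeq2 1.42.0 are an alternative, as are other scaling, no filter, all mice in a single fit, a replicate block and leaving out each mouse. The fits were tested on simulated data. CPM over all 24 mice used TMM factors within each library type. The libraries of a mouse are paired by origin: deviations of its RPF and RNA libraries from the group means correlated in all 24 mice (r from 0.176 to 0.608). Gene positions came from GENCODE vM39. The members, the lists of partners, clients and cell type markers and the tests were chosen with earlier results of these data known. Genes named besides the members were up to 4 of each list with the largest absolute RPF change in BM at day 4, and the 5 most correlated with the members' mean.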

Additional observations from a re-analysis of the deposited data

How the results depend on the processing

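Of the counts of members called, 409 values under the alternatives stayed on the same side and within 1.5 times of the reported value, 17 were higher and 29 lower, and of the values of single members 810 kept their direction and side, 12 gained and 96 lost the call and 1 reversed. The reversed value was *Cct3* RNA in M at day 4, at -0.0078 without WT mouse 1, in a range of -0.0078 to 0.1242 over the mice left out. In RNA of M at day 4, DESeq2 called 2 and a fit over all 24 mice 3. At day 10, library totals alone gave 7 in RPFs and 5 in RNA of B, and 6 and 7 in M. BM against M at day 4 then gave 8 in both. With all mice in a single fit, B at day 10 had 2 in RPFs, M at day 10 had 4 in RNA, BM against M had 2 in RPFs, and the difference of the BM effects had 1 in RPFs and 1 in RNA, where library totals gave 1 (*Cct5*, lower at day 10). The replicate block, which for TE pairs the libraries of a mouse, gave 1 in TE of BM at day 4. Replicate numbers do not pair mice of different genotypes (r from -0.194 to 0.233 in RPFs and -0.189 to 0.199 in RNA), and with the number as a block, B at day 10 had 0 and M at day 10 had 1 in RPFs and 1 in RNA. The causes were not tested.

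Leaving out each mouse gave, in M at day 4, 5 to 7 in RPFs and 1 to 6 in RNA, and in BM at day 4, 8 in RPFs and 7 to 8 in RNA. BM against M had 2 to 5 in RPFs and 2 to 5 in RNA. At day 10, B had 0 to 1 in RPFs, M had 1 to 3 in RPFs and 0 to 4 in RNA (0 without M mouse 1 or 2, 4 without M mouse 3, 1 when a single WT mouse was left out), and BM had 0 to 1 in TE, 3 to 7 in RPFs and 6 to 8 in RNA. In RPFs of M at day 10 it was 1 without WT mouse 1 or 3 or M mouse 1 or 2. The difference of the BM effects had 0 to 1 in TE, 0 to 2 in RPFs and 0 to 3 in RNA, the highest without BM mouse 1 of day 10.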
